A study of Mus musculus with 19 samples.

Results

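The 9 genes described here encode chains of laminin, and they were chosen by symbol from a microarray study of mouse mammary tumours: the α chains Lama1, Lama2, Lama3, Lama4 and Lama5, the β chains Lamb1, Lamb2 and Lamb3, and the γ chain Lamc1. Each was read by 1 probe set, a group of probes for 1 transcript, and only probe sets with a single gene symbol were used. They are 9 of 22180 genes with such a probe set, and 8 of them were among the 14230 genes bright enough to be tested. Lama3 was below that brightness on all 19 arrays.

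The study took flash frozen tumours from MMTV-NIC mice, which make activated ErbB2 and Cre recombinase from 1 transcript of an MMTV-driven transgene in the mammary epithelium. Floxed alleles of Itgb1, Itgb3 or both, which encode integrin β subunits, are targeted for deletion in epithelial cells, and the stroma of the same tumours keeps the genes. The 4 groups were 5 control tumours with wild-type integrin genes (NIC WT), 4 tumours with floxed Itgb1 (Itgb1 knockout), 4 with floxed Itgb3 (Itgb3 knockout) and 6 with both genes floxed (labelled double knockout), and all 4 groups carry the ErbB2 and Cre transgene. Total RNA of whole tumours was hybridised, so fewer cells of a type and less RNA per cell cannot be told apart. The labels give no ages and do not say whether the tumours came from separate animals, and p-values therefore reflect only the spread among these tumours, which may in part be technical.

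Laminins are large secreted proteins, each a cross-shaped trimer of an α, a β and a γ chain, and they polymerise into one of the sheets of the basement membrane. Most of their contact with cells runs through the end of the α chain, which binds integrins that contain Itgb1 or Itgb4 and binds dystroglycan. In the mammary gland the basement membrane surrounds the epithelium and the blood vessels, and laminin is known there as a signal for epithelial polarity and milk protein synthesis.

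All 19 arrays had medians of 4.32 to 4.48 on the log2 intensity scale, and each correlated with the others at a median of at least 0.969. The luminal keratin Krt8 read 9.81 to 10.9 and the epithelial adhesion gene Epcam read 11.1 to 11.6. Of 9 measured basal and myoepithelial markers 7 passed the brightness threshold, and Krt14 and Trp63 did not. Itgb1 fell by 1.46 in Itgb1 knockout tumours (limma, adjusted p = 0.0217) and by 1.84 in tumours labelled double knockout (adjusted p = 0.000156) against control, as log2 differences. Itgb3 was 1.12 lower in Itgb3 knockout tumours without passing (difference -1.12, adjusted p = 0.723). Itgb3 read 6.34 to 7.40 in those tumours and 7.72 to 8.41 in control tumours, without overlap, as for 2.35% of all genes. It was not lower in tumours labelled double knockout (difference 0.01, adjusted p = 0.986), where it was higher than in Itgb3 knockout tumours by 1.13 (adjusted p = 0.0223). For Itgb3 that group thus goes against its label, and differences drawn from it are differences of the tumours so labelled. Whether the Itgb3 probes lie in the deleted stretch was not analysed here. A control tumour (replicate 2), an Itgb1 knockout tumour (replicate 1), an Itgb3 knockout tumour (replicate 3) and a tumour labelled double knockout (replicate 2) stood apart by skeletal muscle markers, with means of 7.16, 6.63, 6.46 and 7.42.

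Of the laminin chains tested, Lamb1 changed between groups and the other 7 did not pass the test in any of the 6 comparisons of 2 groups. Lamb1 was 1.82-fold higher in tumours labelled double knockout than in Itgb3 knockout tumours. In that comparison Lama2 (1.55-fold higher, adjusted p = 0.0532) and Lamb2 (1.31-fold higher, adjusted p = 0.147) came next among the chains and did not pass. The chains Lama4, Lama5 and Lamc1 read well above the array median in every tumour, and their group means differed by at most 0.34 on the log2 scale.

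**Figure D1:**
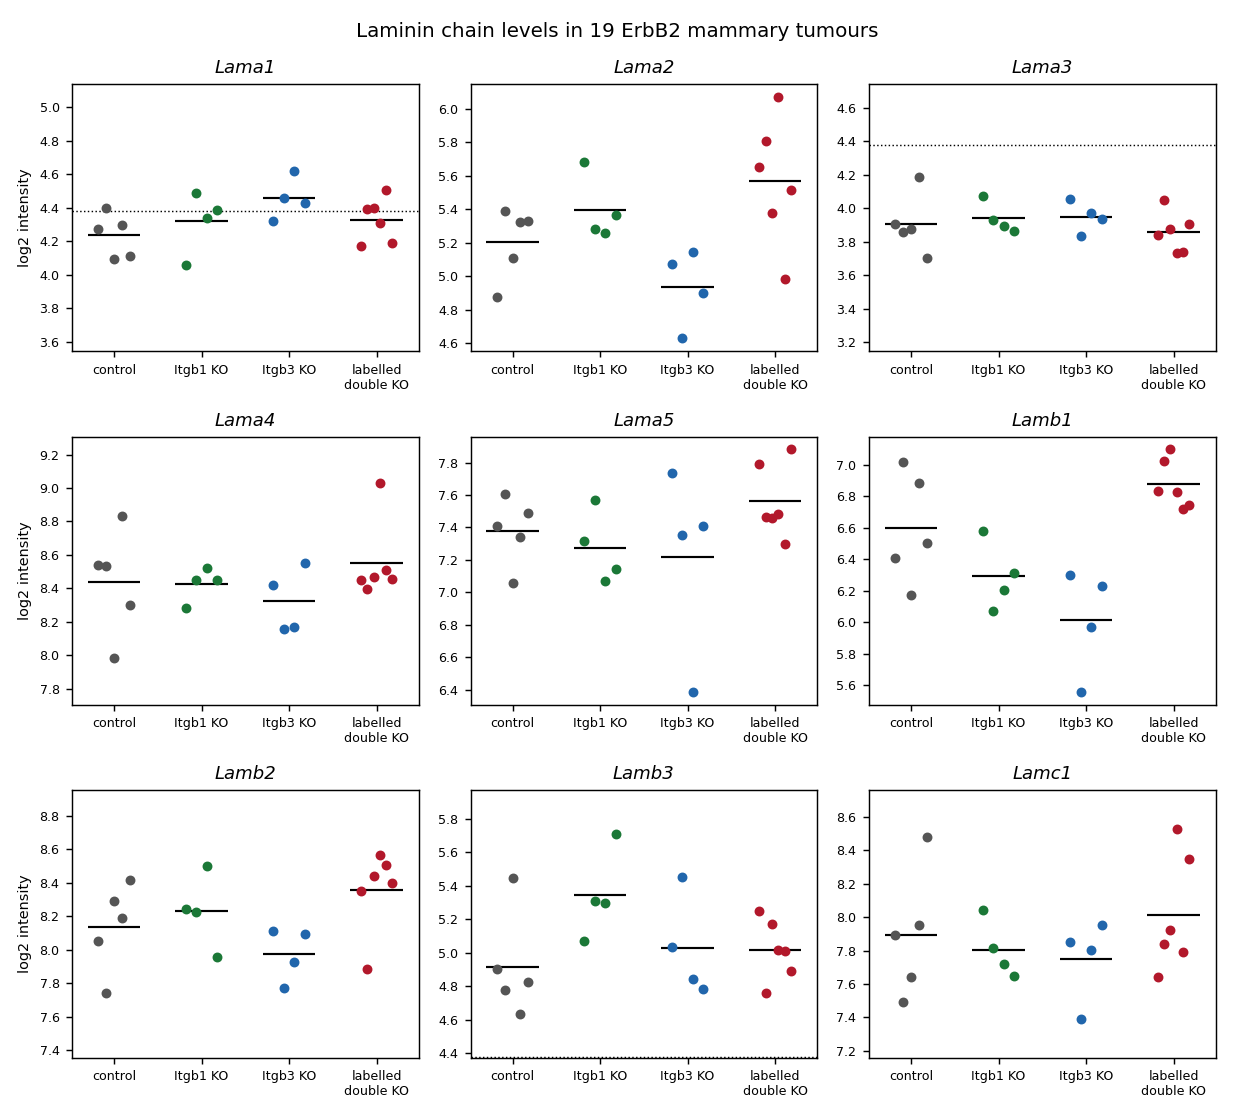
Log2 intensity of each of the 9 laminin chains (vertical axis, 1 panel per chain) by genotype group (horizontal axis). Each point is 1 tumour and each bar a group mean, with n of 5, 4, 4 and 6. The 6 Lamb1 points of the tumours labelled double knockout, at 6.72 to 7.10, lie above the 4 Itgb3 knockout points, at 5.55 to 6.30.

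The promoter sequences of Lamb1, Lama2 and Lamb2 are shown because these are the 3 chains with the smallest p-values in that comparison. Each is the stretch of 250 bases before the annotated start of the gene, read 5′ to 3′ on the gene's strand, from RefSeq on GRCm38.p6. Capitals mark GC boxes, the letters GGGCGG on either strand, which Sp-family transcription factors are known to bind. The Lamb1 window is chr12:31265043-31265292 on the plus strand, the Lama2 window chr10:27616943-27617192 on the minus strand and the Lamb2 window chr9:108479612-108479861 on the plus strand.
Lamb1: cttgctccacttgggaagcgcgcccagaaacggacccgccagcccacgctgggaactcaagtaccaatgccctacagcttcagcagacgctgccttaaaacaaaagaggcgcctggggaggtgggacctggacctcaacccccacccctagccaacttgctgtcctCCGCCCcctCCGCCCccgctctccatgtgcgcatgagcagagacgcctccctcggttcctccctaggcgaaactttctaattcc
Lama2: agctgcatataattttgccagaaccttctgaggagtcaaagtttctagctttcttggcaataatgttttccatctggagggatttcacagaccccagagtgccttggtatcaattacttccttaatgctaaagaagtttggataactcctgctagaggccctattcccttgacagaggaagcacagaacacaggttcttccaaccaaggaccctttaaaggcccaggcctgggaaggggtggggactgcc
Lamb2: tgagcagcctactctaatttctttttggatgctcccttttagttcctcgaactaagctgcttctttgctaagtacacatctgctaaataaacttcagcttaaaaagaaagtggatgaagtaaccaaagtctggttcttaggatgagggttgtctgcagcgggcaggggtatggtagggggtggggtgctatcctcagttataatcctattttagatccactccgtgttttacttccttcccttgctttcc
The Lamb1 window holds 2 GC boxes, 84 and 75 bases before the start, and 62.0% of its bases are G or C. The windows of Lama2 and Lamb2 hold 0 GC boxes and have 47.2% and 43.6% G or C. Of the chains not printed, Lama5, which did not pass in any comparison, has 4 GC boxes and 72.4% G or C. The windows of Lamb3 hold 0 GC boxes. Over all 32851 promoter windows of that length, 32.7% hold a GC box, and the median G or C content is 52.4%. The CCAAT box, searched as CCAAT on either strand, occurs once in the Lamb1 window, 187 bases before the start, and in 33.8% of all windows. The E box (CANNTG, in 66.2% of all windows) occurs in each of the 3 printed windows. The TATA box (TATAAA, in 12.4% of all windows) and the AP-1 site (TGANTCA, in 6.75%) do not occur in these 3 windows. Windows were searched for 5 of the 9 chains. A match of letters is a description of the sequence and not a binding site.

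Lamb1 encodes the β chain of most embryonic and many adult laminins, made by epithelium, endothelium and mesenchyme. In the control tumours Lamb1 read 6.17, 6.41, 6.51, 6.89 and 7.02. In the Itgb1 knockout tumours it read 6.07, 6.20, 6.31 and 6.58, and in the Itgb3 knockout tumours 5.55, 5.97, 6.23 and 6.30. In the 6 tumours labelled double knockout the lowest, median and highest values were 6.72, 6.83 and 7.10. The tumours labelled double knockout were all higher than every single knockout tumour, while the control tumours overlapped both ranges. Group means were 6.88 ± 0.15 (SD, n = 6) in tumours labelled double knockout, 6.60 ± 0.35 (n = 5) in control, 6.29 ± 0.22 (n = 4) in Itgb1 knockout and 6.01 ± 0.34 (n = 4) in Itgb3 knockout tumours.

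The log2 difference of Lamb1 between tumours labelled double knockout and Itgb3 knockout tumours was 0.86 (SE 0.169, 95% interval 0.51 to 1.22, limma adjusted p = 0.0163), with no overlap between the 6 and the 4 tumours. Against Itgb1 knockout tumours the difference was 0.58 (SE 0.169, adjusted p = 0.178), again with no overlap. Lamb1 was lower in Itgb3 knockout tumours than in control by a difference of -0.59 (SE 0.176, adjusted p = 0.791), and these groups overlapped. No neighbours in the order of the 4 means passed the test: the difference was 0.28 (adjusted p = 0.386) from control to the tumours labelled double knockout, -0.31 (adjusted p = 0.982) from control to Itgb1 knockout and -0.28 (adjusted p = 0.996) from Itgb1 to Itgb3 knockout. The interaction, which is the labelled double knockout difference from control less both single knockout differences, was 1.17 for Lamb1 (SE 0.244, 95% interval 0.66 to 1.68, adjusted p = 0.0963). It did not pass, and 16 genes had a smaller p in the interaction. Itgb3 was not lower in the tumours labelled double knockout than in control, and its own interaction was 1.01 (limma, adjusted p = 0.271). The interaction thus describes the labelled groups and does not measure the joint loss of both genes.

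The call on Lamb1 was lost under 3 of 29 alternatives. Without Itgb3 knockout replicate 2, which had the lowest Lamb1 value of all 19 tumours, the difference was 0.71 (limma, adjusted p = 0.0557). That tumour also had the lowest mean of the 13 fibroblast markers, 5.03. With that mean as a covariate the difference was 0.65 (adjusted p = 0.106), and without the 4 tumours with high skeletal muscle markers it was 0.82 (adjusted p = 0.0645). Over all genes the calls fell in these settings too, from 408 to 21 and 24.

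Lamb2 encodes the β chain known from vessel walls, the neuromuscular junction and the kidney filter. It read 7.74, 8.05, 8.19, 8.29 and 8.42 in control tumours, 7.96, 8.23, 8.24 and 8.50 in Itgb1 knockout tumours and 7.77, 7.92, 8.09 and 8.11 in Itgb3 knockout tumours. In the tumours labelled double knockout its lowest, median and highest values were 7.89, 8.42 and 8.57. Of these 6 tumours 5 lay above every Itgb3 knockout tumour, and replicate 2 fell within their range. The difference between these groups was 0.38 (SE 0.148, adjusted p = 0.147) and passed only with the arrays centred on their medians (0.50, adjusted p = 0.0491), among the alternatives tried.

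Lamb3 encodes the β chain of the epithelial laminin that anchors hemidesmosomes, and it was dim. It read 4.63, 4.78, 4.82, 4.90 and 5.45 in control tumours, 5.07, 5.30, 5.31 and 5.71 in Itgb1 knockout tumours and 4.79, 4.84, 5.03 and 5.45 in Itgb3 knockout tumours. In the tumours labelled double knockout it ran from 4.76 through a median of 5.01 to 5.25. Every Itgb1 knockout tumour was above 4 of the 5 control tumours. The difference from control was 0.43 (SE 0.172), with an adjusted p of 0.982 in limma.

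Lama2 encodes the α chain of muscle and peripheral nerve basement membranes and binds dystroglycan strongly. It read 4.88, 5.11, 5.32, 5.33 and 5.39 in control tumours. In Itgb1 knockout tumours it read 5.26, 5.29, 5.36 and 5.68, and in Itgb3 knockout tumours 4.63, 4.90, 5.07 and 5.15. In the tumours labelled double knockout its lowest, median and highest values were 4.98, 5.58 and 6.07. All 4 Itgb3 knockout tumours were below all 4 Itgb1 knockout tumours, and the tumours labelled double knockout overlapped both groups.

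Against Itgb3 knockout tumours the Lama2 difference of the tumours labelled double knockout was 0.63 (SE 0.173, 95% interval 0.27 to 0.99, adjusted p = 0.0532). It lay close to the threshold and passed with the arrays centred (0.74, adjusted p = 0.0176), with array weights (0.57, adjusted p = 0.0211), with dim values raised to the filter level (0.63, adjusted p = 0.0498) and without labelled double knockout replicate 5 (0.75, adjusted p = 0.0151). With the fibroblast marker mean as a covariate it was 0.39 (adjusted p = 0.270). The Lama2 difference was 0.36 against control (SE 0.163, adjusted p = 0.269), and it was -0.46 between Itgb3 and Itgb1 knockout tumours (SE 0.190, adjusted p = 0.996).

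Lama4, the α chain of endothelial and mesenchymal laminins, had group means of 8.44 ± 0.32 in control, 8.43 ± 0.10 in Itgb1 knockout, 8.32 ± 0.19 in Itgb3 knockout and 8.55 ± 0.24 in tumours labelled double knockout. Its values ran from 7.98, in a control tumour, to 9.03, in a tumour labelled double knockout, and the 4 groups overlapped. The intervals of its 6 group differences lay within -0.45 and 0.54. The Lamb1 difference of 0.86 between labelled double knockout and Itgb3 knockout tumours is outside them, but its interval, 0.51 to 1.22, is not wholly so. The difference between the 2 genes was not tested.

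Lama5 encodes the α chain of most adult epithelial and vascular laminins. Its group means were 7.38 ± 0.21, 7.27 ± 0.22, 7.22 ± 0.58 and 7.56 ± 0.22 in control, Itgb1 knockout, Itgb3 knockout and labelled double knockout tumours. The wide SD of the Itgb3 knockout group came from replicate 3 at 6.38, against 7.35, 7.41 and 7.74 in its other tumours. The largest Lama5 difference between groups was 0.34, from Itgb3 knockout to labelled double knockout tumours (SE 0.199, adjusted p = 0.332).

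Lama1, the α chain of the early embryonic laminin, reached the brightness threshold on 9 of the 19 arrays and ran from 4.06 to 4.62. Its group means lay between 4.24 and 4.46, within 0.22 of each other, and the adjusted p of its difference between Itgb3 knockout and control tumours was 0.810. Lama3, the α chain that pairs with Lamb3 in the hemidesmosome laminin, read 3.71 to 4.18 and was below the threshold on all 19 arrays. Lama3 was therefore not tested, and its 4 group means lay between 3.86 and 3.95.

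Lamc1 encodes the γ chain shared by most laminins, including those built with Lamb1 or Lamb2. Its group means were 7.89 ± 0.38 in control, 7.81 ± 0.17 in Itgb1 knockout, 7.75 ± 0.25 in Itgb3 knockout and 8.01 ± 0.35 in tumours labelled double knockout. The values overlapped in all 6 comparisons, and the difference between tumours labelled double knockout and Itgb3 knockout tumours was 0.26 (SE 0.191, 95% interval -0.14 to 0.66, adjusted p = 0.455). Lamc1 thus did not pass where Lamb1 did, and the difference between the genes was not tested.

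**Figure D2:**
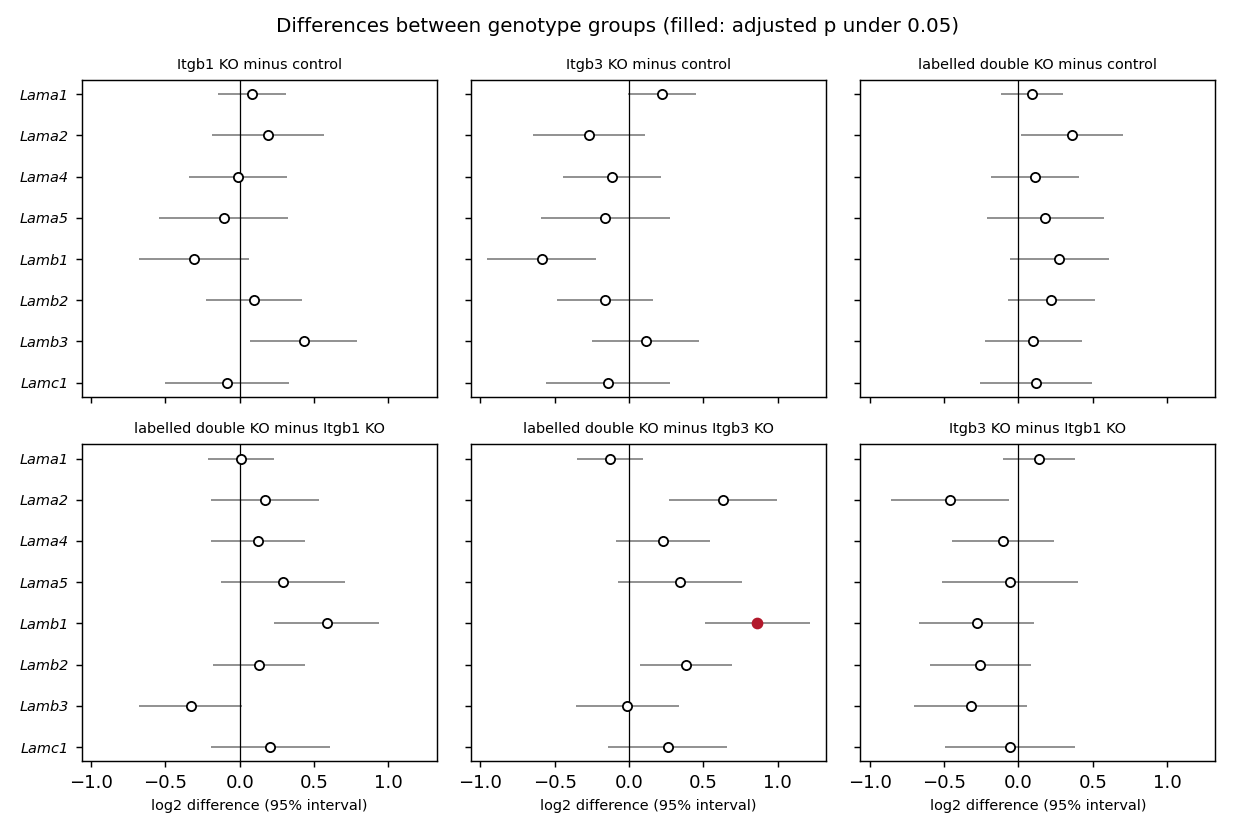
Log2 difference (horizontal axis) of the 8 tested laminin chains (vertical axis) in the 6 comparisons of 2 groups, with 95% intervals; filled points passed at an adjusted p of 0.05. The single filled point is Lamb1 in tumours labelled double knockout against Itgb3 knockout tumours, at 0.86.

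Between tumours labelled double knockout and Itgb3 knockout tumours, 1 of 8 laminin chains passed, against 2.87% of all genes tested (408 genes, 338 higher and 70 lower). At an unadjusted p under 0.05 there were 3 of 8 chains (Lamb1, Lama2 and Lamb2), against 21.1% of all genes, and 1 of 8 had groups without overlap, against 8.95%. The median difference of the 8 chains was 0.30, with 6 above 0, beside a median of 0.03 over all genes. Centring the arrays moves both medians alike, to 0.41 for the chains and 0.14 over all genes. Quantile normalization lowers them, to 0.22 and 0.01.

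Against control, the tumours labelled double knockout had 0 of 8 laminin chains past the test in limma, where 0.387% of genes passed (42 higher and 13 lower). At an unadjusted p under 0.05 there was 1 chain, Lama2, against 16.8% of genes, and 0 chains had groups without overlap, against 1.79%. All 8 differences were above 0, from 0.09 to 0.36, with a median of 0.15 beside 0.03 over all genes. Against Itgb1 knockout tumours 0 of 8 chains passed, against 0.0211% of genes. There 1 chain, Lamb1, had an unadjusted p under 0.05 (12.3% of genes) and the same chain had groups without overlap (2.69% of genes), and the median over the chains was 0.15 beside 0.01. These comparisons share the tumours labelled double knockout, so their values are not independent.

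In single knockout tumours 0 of 8 laminin chains passed in limma against control. For Itgb1 knockout 0.00703% of genes passed, which was Itgb1 itself, and 1 chain, Lamb3, had an unadjusted p under 0.05 against 4.86% of genes. For Itgb3 knockout 0% of genes passed, and 1 chain, Lamb1, had an unadjusted p under 0.05 against 6.14% of genes (874 genes). No chain had groups without overlap in either comparison, against 1.18% and 2.35% of genes. The medians over the chains were 0.04 for Itgb1 knockout and -0.15 for Itgb3 knockout, beside 0.02 and -0.01 over all genes.

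Between the single knockouts, 0 of 8 chains and 0% of genes passed in limma. There 1 chain, Lama2, had an unadjusted p under 0.05, against 4.55% of genes (647 genes), and the same chain had groups without overlap, against 3.87%. Itgb3 knockout tumours were lower in 7 of 8 chains, with a median of -0.18 beside -0.03 over all genes. Centring the arrays moves both medians, to -0.25 and -0.10, and quantile normalization moves them to -0.11 and -0.01. In the interaction 0 of 8 chains and 0% of genes passed, and 1 chain, Lamb1, had an unadjusted p under 0.05 against 12.5% of genes (1777 genes). Shares of the chains near those of all genes are no result about laminin.

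Markers of cell types that can make laminins were compared in the same groups. Of 13 fibroblast markers 0 passed between tumours labelled double knockout and Itgb3 knockout tumours, 12 were above 0 and the median difference was 0.88. The fibroblast mean ran from 6.36 to 7.33 in control, from 6.81 to 7.34 in Itgb1 knockout, from 5.03 to 7.36 in Itgb3 knockout and from 5.98 to 7.83 in tumours labelled double knockout, so the groups overlapped. Of 15 endothelial markers 1 passed (median 0.33), of 12 markers of pericytes and smooth muscle 0 (median 0.49), of 11 macrophage markers 3 (median 0.58), and of 7 basal and myoepithelial markers 0 (median 0.48). Of 11 luminal markers 0 passed (median -0.05). Among the lists with few or dim members, 0 of 7 adipocyte markers (median -0.02), 0 of 3 epidermal (-0.14), 0 of 8 skeletal muscle (0.08) and 0 of 7 nerve and Schwann cell markers (0.25) passed. Over all genes 2.87% passed in this comparison, and 21.1% had an unadjusted p under 0.05. At the unadjusted threshold there were 8 of 13 fibroblast, 6 of 15 endothelial, 6 of 12 pericyte and smooth muscle and 6 of 11 macrophage markers. There were also 4 of 7 basal and myoepithelial, 3 of 11 luminal and 2 of 7 nerve and Schwann cell markers. Adipocyte, epidermal and skeletal muscle markers had 0. Acta2 and Myh11 are in both the basal and the pericyte and smooth muscle lists, so these counts are not independent. Des is likewise in both the pericyte and smooth muscle and the skeletal muscle lists. The part of these cells in the laminin differences was not tested beyond the covariate and left-out values given for Lamb1 and Lama2.

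Within groups, 3 relations between a chain and a marker list passed by rank correlation and 0 by Pearson's r: Lamb1 with fibroblasts, Lama2 with skeletal muscle, and Lamb3, inversely, with pericytes and smooth muscle. Correlations were taken over 19 tumours as deviations from the group means, with permutation p-values adjusted over the 80 pairs of a chain and a marker list. The permutations ran over all 19 tumours without regard to group. They make no allowance for the group means removed, so the p-values are somewhat too small. The 2 calls at an adjusted p of 0.0320 may therefore not hold. For Lamb1 and fibroblast markers Pearson's r was 0.57 (permutation p = 0.0104, adjusted p = 0.112), Spearman's rho was 0.70 (p = 0.00120, adjusted p = 0.0320), and r was 0.54 without the 2 tumours farthest from the median of Lamb1. Lamb1 also had r = -0.64 with the nerve and Schwann cell markers (permutation p = 0.00277, adjusted p = 0.105; rho = -0.55, p = 0.0147, adjusted p = 0.137; r = -0.52) and r = 0.57 with the markers of pericytes and smooth muscle (p = 0.0112, adjusted p = 0.112; rho = 0.54, p = 0.0184, adjusted p = 0.137; r = 0.65). For Lama2 and fibroblast markers they were 0.62 (permutation p = 0.00493, adjusted p = 0.105), 0.61 (p = 0.00705, adjusted p = 0.0940) and 0.65. Lama2 and the skeletal muscle markers had r = 0.60 (permutation p = 0.00634, adjusted p = 0.105), rho = 0.71 (p = 0.00098, adjusted p = 0.0320) and r = 0.67 without the 2 farthest tumours. Lamb3 and the markers of pericytes and smooth muscle had r = -0.71 (permutation p = 0.00083, adjusted p = 0.0664), rho = -0.78 (p = 0.00018, adjusted p = 0.0144) and r = -0.73. Lama4 and the endothelial markers did not pass (r = -0.10, permutation p = 0.698, adjusted p = 0.886; rho = -0.19, p = 0.421, adjusted p = 0.729; r = -0.20). By Pearson's r, 14 of the 80 relations had an unadjusted permutation p under 0.05, and not all are printed. Among them, Lamb1 and the skeletal muscle markers had r = 0.50 (permutation p = 0.0278, adjusted p = 0.221) and rho = 0.64 (p = 0.00371, adjusted p = 0.0742). Lamb3 and the epidermal markers had r = 0.60 (permutation p = 0.00656, adjusted p = 0.105). Lamb2 and the skeletal muscle markers had r = -0.58 (permutation p = 0.00895, adjusted p = 0.112), and r = -0.07 without the 2 farthest tumours.

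**Figure D3:**
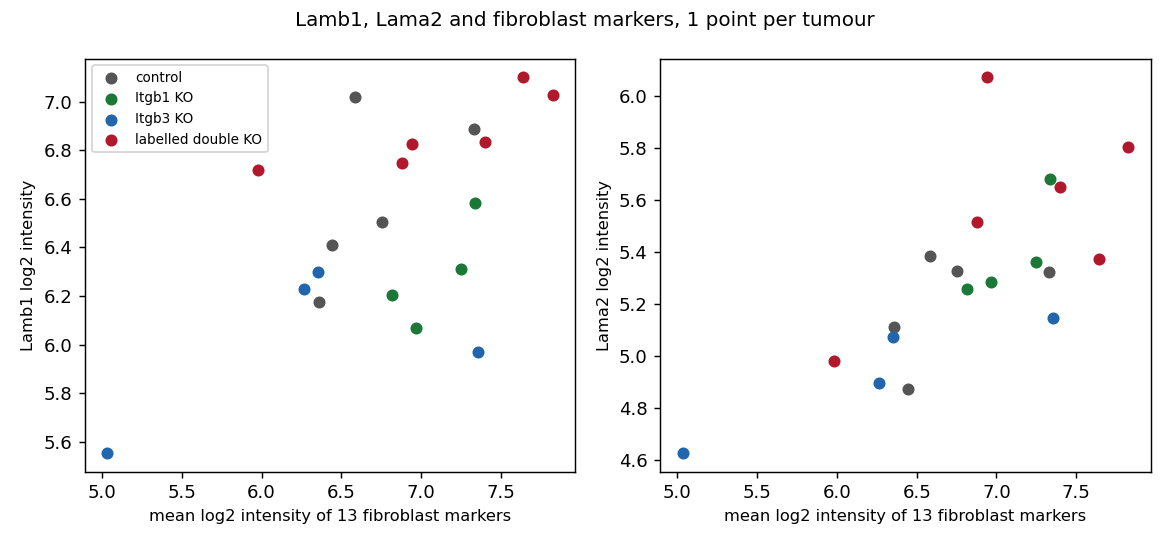
Log2 intensity of Lamb1 and of Lama2 (vertical axes) against the mean log2 intensity of 13 fibroblast markers (horizontal axes), 1 point per tumour, coloured by genotype group. The Itgb3 knockout tumour at the left end, with a fibroblast mean of 5.03, has the lowest Lamb1 (5.55) and the lowest Lama2 (4.63) of the 19 tumours.

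Among the chains themselves, 0 of 28 pairs passed after adjustment by the same permutation test on deviations from the group means, with a smallest adjusted p of 0.151 by Pearson's r and 0.211 by Spearman's rho. The 4 pairs with an unadjusted p under 0.05 were Lamb1 and Lamb3 (r = -0.61, p = 0.00538; rho = -0.49, p = 0.0330; r = -0.52 without the 2 farthest tumours), Lamb2 and Lamc1 (r = 0.55, p = 0.0153; rho = 0.49, p = 0.0361; r = 0.47), Lama2 and Lamb1 (r = 0.49, p = 0.0337; rho = 0.60, p = 0.00755; r = 0.62), and Lamb3 and Lamc1 (r = -0.47, p = 0.0421; rho = -0.44, p = 0.0641; r = -0.32). Their adjusted p-values by Pearson's r were 0.151, 0.214, 0.276 and 0.276, and by Spearman's rho 0.337, 0.337, 0.211 and 0.359. The 28 coefficients were split, with 15 above 0 and 13 below. The genes most like each chain, by Pearson's r of these deviations over 19 tumours, were picked as the highest of all genes tested and are given as a description with no test. For the α chains they were Itgb3bp (0.83), Syt9 (0.80) and Trim36 (0.78) for Lama1, Flnc (0.91), Itm2a (0.83) and Lix1l (0.82) for Lama2, Ccdc58, Nr1i2 and Ttc3 (0.83 each) for Lama4, and Ube2v1 (0.80), Kbtbd4 (0.78) and Rbm39 (0.76) for Lama5. For the β chains they were Lce1h (0.85), Foxe1 (0.82) and Zfp654 (0.80) for Lamb1, Add3 (0.84), Tusc3 (0.81) and Pld1 (0.79) for Lamb2, and Atp23 (0.84), Msra (0.79) and Rasal1 (0.78) for Lamb3. For Lamc1 they were Prrg3 (0.90), Itga3 (0.87) and Ptpa (0.84).

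The receptors and partners of laminin were taken from lists of genes written by function. Between tumours labelled double knockout and Itgb3 knockout tumours, 3 of 15 laminin receptors passed, 1 of them the deleted Itgb1, against 2.87% of all genes. Itga2, the α subunit of a collagen and laminin integrin, rose by 0.93 (adjusted p = 0.0163), and Itgb4, the β subunit of the hemidesmosome integrin, rose by 1.05 (adjusted p = 0.0163), while Itgb1, the deleted gene, fell by 1.72 (adjusted p = 0.00055). The Itga2 values of the tumours labelled double knockout (5.52 to 6.49) did not overlap those of the Itgb3 knockout tumours (4.64 to 5.05), and for Itgb4 the ranges 7.92 to 9.31 and 7.63 to 7.77 did not overlap either, as for 8.95% of all genes. The median over the receptors was 0.25. Cd151, a tetraspanin partner of laminin-binding integrins, differed by 0.25 (adjusted p = 0.403).

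Of 21 other basement membrane genes tested, 4 rose and 0 fell in the same comparison (median 0.37), where 2.87% of all genes passed and 338 of those 408 were higher. They were Hspg2, which encodes perlecan, by 0.88 (adjusted p = 0.00998), the collagen IV chain Col4a2 by 0.98 (adjusted p = 0.0163), Col15a1 by 0.99 (adjusted p = 0.0223) and Nid1, the nidogen that links laminin to collagen IV, by 0.88 (adjusted p = 0.0375). The ranges of Col4a2 (6.95 to 7.47 against 5.99 to 6.49) and Hspg2 (6.56 to 7.41 against 5.96 to 6.36) did not overlap, as for 8.95% of all genes, and those of Nid1 and Col15a1 did. Frem1, an epithelial basement membrane protein, and Col18a1, the precursor of endostatin, differed by 1.08 (adjusted p = 0.0504) and 0.36 (adjusted p = 0.116) and did not pass. Marker medians in this comparison were 0.88 for fibroblasts, 0.58 for macrophages, 0.49 for pericytes and smooth muscle and 0.48 for basal cells. They were 0.33 for endothelium, 0.25 for nerve, 0.08 for skeletal muscle, -0.02 for adipocytes, -0.05 for luminal cells and -0.14 for epidermis. Fbln1 is both a fibroblast marker and a member of the lists of partners.

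The counts of the next 4 lists stand beside 2.87% of all genes that passed and 21.1% at an unadjusted p under 0.05. Of 7 hemidesmosome genes 2 rose and 0 fell (median 0.25): Itgb4 and the cytolinker Plec, by 0.57 (adjusted p = 0.0136), while Itga6, the partner of Itgb4, differed by -0.25 (adjusted p = 0.411). Of 9 proteases known to cut laminins 1 rose and 0 fell (median 0.49), the membrane metalloproteinase Mmp14 by 1.18 (adjusted p = 0.0296), and Bmp1, Plau and Plat differed by 0.91, 0.54 and 0.38 (adjusted p = 0.0504, 0.0746 and 0.356). Of 12 genes of the dystroglycan complex and its glycosylation 0 passed in limma (3 with an unadjusted p under 0.05, median 0.13), with Sntb1, Pomt2, Pomgnt1 and B4gat1 at 0.43, 0.27, -0.64 and -0.20. In the list of other laminin and netrin chains the 4 genes tested were all netrins, so no further laminin chain was tested. Of these netrins 0 passed (1 with an unadjusted p under 0.05, median 0.15), with Ntn4, Ntn1, Ntn3 and Ntng2 at 0.93, 0.09, 0.21 and -0.16.

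With the fibroblast mean as a covariate, and also without the 4 tumours with high skeletal muscle markers, Itgb1 passed and the 8 genes that rose did not, although all 8 differences stayed above 0. Over all genes, 408 calls of labelled double knockout against Itgb3 knockout fell to 21 with the covariate and 24 without those tumours. With the covariate and without those tumours the differences were 0.57 and 0.60 for Plec, 0.74 and 0.82 for Hspg2, 0.83 and 0.97 for Col4a2, 0.87 and 1.02 for Itgb4, and 0.79 and 0.88 for Itga2. For Col15a1, Mmp14 and Nid1 they were 0.61, 0.65 and 0.47 with the covariate, and 1.04, 1.21 and 0.92 without those tumours. The adjusted p-values for the 8 genes were 0.0628 to 0.186 with the covariate and 0.0625 to 0.104 without those tumours, which also leaves fewer samples. Without Itgb3 knockout replicate 2, Hspg2, Plec and Itgb4 passed (adjusted p = 0.0356, 0.0369 and 0.0433). Col4a2, Itga2, Col15a1, Mmp14 and Nid1 then missed the threshold at differences of 0.92, 0.84, 0.84, 0.99 and 0.73 (adjusted p = 0.0519, 0.0623, 0.0736, 0.0910 and 0.119). Without replicate 1 of that group Col4a2, Itga2, Itgb4 and Col15a1 missed it at 0.97, 0.96, 1.07 and 1.02, and without replicate 4 Itgb4 and Col15a1 missed it at 1.03 and 0.98. Nid1 and Mmp14 missed it without any 1 of the 4 Itgb3 knockout tumours, without labelled double knockout replicate 1, 2 or 3 and with quantile normalization (0.78 and 1.09). Nid1 also missed it without labelled double knockout replicate 4, and Mmp14 in the fit of the 2 groups alone (1.18, adjusted p = 0.0529).

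Against control, Itga2 rose by 0.93 (adjusted p = 0.0279) and Itgb4 by 0.91 (adjusted p = 0.0499) in tumours labelled double knockout, and Itgb1 fell. The Itgb4 call held under 4 of 29 alternatives and the Itga2 call under 22 of 29, with adjusted p up to 0.267 and 0.245. Itga2 missed the threshold without control replicate 1, 2 or 4 or labelled double knockout replicate 2 (0.86 to 0.96), with the fibroblast covariate (0.86, adjusted p = 0.0586), without the 4 tumours with high skeletal muscle markers (0.79, adjusted p = 0.245) and in the fit of the 2 groups alone (0.93, adjusted p = 0.123). Of the basement membrane genes, the dystroglycan genes, the proteases and the netrins 0 passed there in limma, with 8 of 21, 1 of 12, 2 of 9 and 1 of 4 at an unadjusted p under 0.05, against 16.8% of all genes. In that comparison Frem1, Hspg2, Col18a1 and Col15a1 differed by 1.15, 0.60, 0.50 and 0.70 (adjusted p = 0.0659, 0.0664, 0.0696 and 0.105). Of the same lists 0 members passed in Itgb3 knockout tumours against control, and 1, Itgb1, in Itgb1 knockout tumours.

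**Figure D4:**
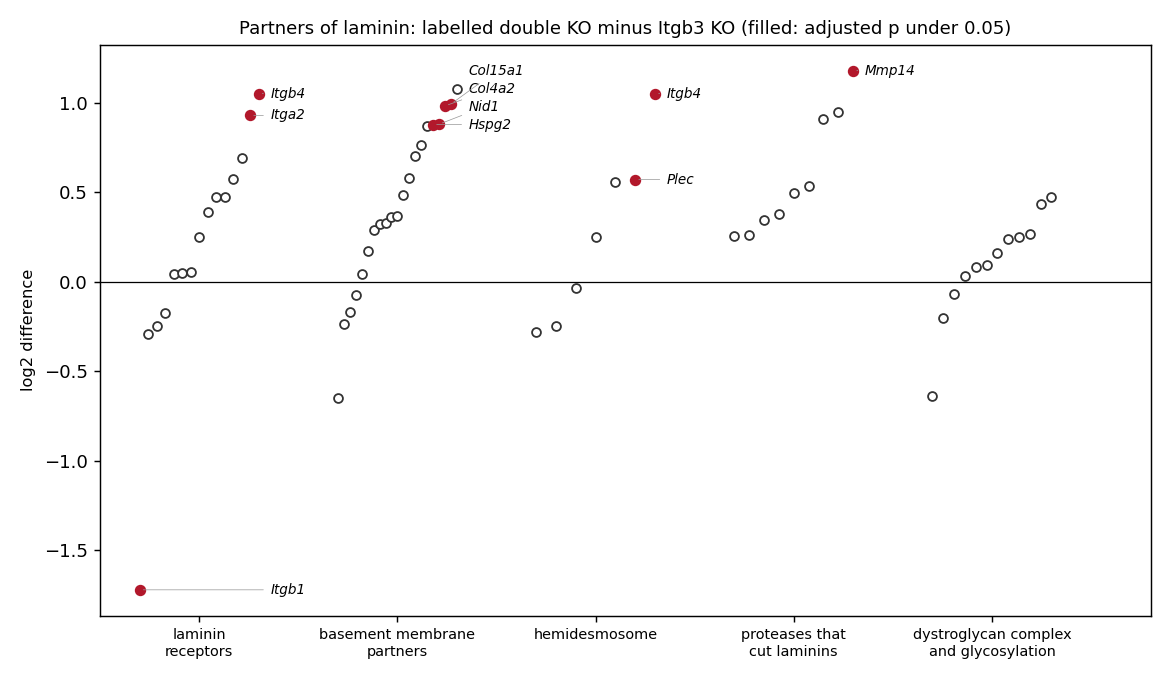
Log2 difference between tumours labelled double knockout and Itgb3 knockout tumours (vertical axis) for each gene of 5 laminin-related lists (horizontal axis), 1 point per gene; filled points passed at an adjusted p of 0.05. Among the filled points Itgb1 lies at -1.72 and the others lie between 0.57 and 1.18.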

How the data were processed

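Whole-tumour RNA from 19 samples was labelled and hybridised to an Affymetrix whole-transcript array, per the labels' protocols. The deposited table holds the authors' normalized log2 intensities for 41345 probe sets, made with Affymetrix Expression Console per the submitters' processing notes; its version and settings are not given in the sources used. These values were used as deposited. They ran from 0.542 to 13.7, and no pair of arrays correlated above 0.984. The number of arrays limits the precision.

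Platform annotation gave 1 symbol for 23521 probe sets, several for 1814 and none for 16010; of the former, 23328 identifiers were found in the RefSeq gene table and 0 symbols differed. A gene was tested where its brightest probe set by mean was at or above 4.38, the median of all deposited values, on 4 or more arrays (the smallest groups hold 4). All 19 arrays entered 1 limma 3.58.1 fit (lmFit and eBayes, R 4.3.3) with 1 mean per group, 15 residual degrees of freedom and 18.7 after moderation. The 7 comparisons used two-sided tests, adjusted over all 14230 genes by the Benjamini-Hochberg method, and a call is an adjusted p under 0.05. The procedure was checked on simulated data. Correlations used 100000 permutations over all 19 arrays without regard to group (Python 3.11.15, scipy 1.17.1). Samples were grouped by the labelled genotype, and replicate numbers are in accession order.

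The members and gene lists were chosen with earlier results of these data known. Named were all 9 chains, each chain and comparison with an unadjusted p under 0.05, 3 like genes per chain, and, of each list of partners, up to 4 members with the smallest p against control in tumours labelled double knockout and every member that passed. Alternatives were no filter, mean probe set, array centring, quantile normalization, array weights, a trended robust prior, raised dim values, 2-group fits and each array left out. The fibroblast covariate and leaving out the 4 tumours with high skeletal muscle markers were added after seeing the data. Promoter windows come from RefSeq (GRCm38.p6).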

Additional observations from a re-analysis of the deposited data

Results flagged for a closer look

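In tumours labelled double knockout, Lama4 in replicate 4 stood above the other 5 tumours at 9.03, with a gap to the next value of 0.813 of the group's range. In the same group Lamb2 in replicate 2 stood below the others at 7.89, with a gap of 0.686 of the range. These were 2 of 36 groups of tumours examined over the 9 chains, and chance marks about 1 in 20 groups. Neither chain passed the test in any comparison.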

How the results depend on the processing

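Of the recomputed differences of laminin chains with an unadjusted p under 0.05, 252 kept their side of the threshold, 3 lost it, 5 gained it and 0 changed sign. The Lamb1 difference between tumours labelled double knockout and Itgb3 knockout tumours ran from 0.65 to 0.97 (adjusted p = 0.00226 to 0.106) and passed under 26 of 29 alternatives. The number of laminin chains past the test there was 3 with arrays centred, 2 with array weights, 2 with dim values raised, 0 without the 4 tumours with high skeletal muscle markers, 0 with the fibroblast covariate, and 0 to 2 with single arrays left out. In the other comparisons it was 0 under every alternative run. Over all genes, the calls in that comparison numbered 1226 with arrays centred (1173 higher and 53 lower), 231 with quantile normalization, 1569 with array weights, 24 without the muscle-marked tumours, 21 with the covariate and 56 to 459 with single arrays left out. Against control they numbered 100 with arrays centred (87 higher and 13 lower), 27 with no filter, 31 with quantile normalization, 31 with array weights, 26 with the trended prior, 8 without the muscle-marked tumours, 26 with the covariate, 2 with the 2 groups alone and 14 to 125 with single arrays left out. Against Itgb1 knockout tumours they numbered 33 with array weights, 17 without the muscle-marked tumours, 7 with the 2 groups alone and 0 to 24 with single arrays left out. Itgb1 knockout against control gave 0 with array weights, 0 with the covariate and 0 to 1 with single arrays left out, the single knockouts 0 to 1 with single arrays left out, and the interaction 3 with array weights and 0 to 5 with single arrays left out. The cause of these shifts was not tested. Of the 28 pairs of chains, 0 passed with the values as deposited or without the 2 farthest tumours. No paired analysis was possible because the replicate numbers follow accession order and the labels share no number between groups. Brightness near the array median limits what can be said of Lama1, Lama3 and Lamb3.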

Other observations

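Lama5 varied from tumour to tumour with other genes of its own chromosome. Among the 50 genes whose deviations from the group means were most like those of Lama5, 27 lie on chromosome 2 with it (54%), against 7.93% of all tested genes with a known chromosome. Among them were Ube2v1 (r = 0.80), Kbtbd4 (0.78), Rbm39 (0.76), Ncoa6 (0.74) and Stk4 (0.73). For the other 7 chains tested, 1 to 8 of the 50 most similar genes lay on the chain's own chromosome. Without Itgb3 knockout replicate 3, the tumour with the lowest Lama5 value (6.38), the count for Lama5 was 20 of 50 (40%). The measure was chosen after seeing the data, the genes were picked by their likeness, and no test was made.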
